A study of Mus musculus with 6 samples.

Results

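To follow the machinery that folds and degrades proteins in the mitochondrial matrix, 9 nuclear genes for its chaperones and proteases were examined, *Hspd1*, *Hspe1*, *Hspa9*, *Trap1*, *Grpel1*, *Grpel2*, *Lonp1*, *Clpp* and *Clpx*, in murine acute myeloid leukemia (AML) cells. They were taken from the 54838 genes of the deposited count table as a list of gene names, and all 9 had enough counts to be tested. The leukemia, called I1DN, has the C57BL/6 background and carries IDH1R132H, DNMT3AR882H and NrasG12D, which the study introduced with expression constructs into hematopoietic stem and progenitor cells of fetal liver. All mice, controls included, were sublethally irradiated Ptprca recipients of these cells. In one group 3 mice received vehicle, and in the other 3 mice received AG636, an inhibitor of the mitochondrial enzyme DHODH in pyrimidine synthesis, b.i.d. by gavage at 100 mg/kg. Leukemic cells from bone marrow and spleen were sorted for cKit with little or no CD11b, RNA was extracted, and a kit that tags the 3′ end of polyadenylated transcripts was used for sequencing. Ages are not stated in the sources used here, and these sources give differing durations of treatment, so no duration is given. As a model, I1DN expresses its mutant alleles from constructs, and mice of both groups were recipients of the same kind of transplanted leukemia.

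Proteins made in the cytosol enter the matrix unfolded. There the HSP70 protein mortalin (*Hspa9*) pulls them in and holds them, with its nucleotide exchange factors *Grpel1* and *Grpel2*, and many are then folded inside the chamber that HSP60 (*Hspd1*) forms with its lid HSP10 (*Hspe1*). *Trap1* is the HSP90 of mitochondria. Proteins that fail to fold are degraded by the ATP-dependent proteases LONP1 and CLPXP, in which the CLPX ring unfolds a substrate and feeds it to the CLPP peptidase. Cells are known to induce several of these genes when matrix proteins are misfolded, and leukemia cells have been studied for their need of *Clpp*, *Lonp1* and *Trap1*.

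Libraries held from 4634963 to 7906589 counts, and 3 counts corresponded to between 0.379 and 0.647 CPM (counts scaled to a common library size) before normalization, which covers counting error only. Of 11092 genes tested, 1222 were lower with AG636 and 1146 were higher at an adjusted p under 0.05, and with library size alone as the scaling these counts were 913 and 1483. The number lower fell to 701, 692, 630 and 452 without vehicle replicate 1, vehicle replicate 2, AG636 replicate 1 and AG636 replicate 3, respectively. *Kit* was present in all 6 libraries, from 31.8 to 46.3 CPM, and all 8 markers of immature AML cells were detected. Of these 8, *Cd33* and *Ptprc* were called higher with AG636 (log2 fold changes 1.77 and 0.65, adjusted p = 0.00906 and 0.0142). The other 6 were not called: *Kit* (0.15), *Cd34* (0.45), *Ctsg* (0.34), *Elane* (1.05), *Prtn3* (0.41) and *Mpo* (-0.65). The summed level of all 8 was 2119 to 4597 CPM with vehicle and 1629 to 4847 CPM with AG636, with overlap. *Mpo* had the highest mean of the 8 in both groups (2265 and 1448 CPM) and weighs most in that sum. It was the only 1 of the 8 with a log2 fold change below 0, and the median of the list was 0.43. Of 10 markers of mature neutrophils 8 were called higher with AG636, and their summed level was 1089 to 2468 CPM with vehicle and 3016 to 6098 CPM with AG636. *Itgam*, the gene for CD11b, was among them and went from 12.1, 18.3 and 27.0 CPM to 60.1, 31.3 and 41.2 CPM. Summed markers of monocytes and macrophages (2 of 7 tested called higher) were 69.0 to 98.8 and 125 to 166 CPM, and those of mast cells and basophils (2 of 6 higher) 467 to 730.1 and 732 to 1371 CPM. Erythroid markers (2 of 8 lower) summed to 1693 to 4772 CPM with vehicle, highest in vehicle replicate 1, and to 1966 to 3274 CPM with AG636, and lymphoid markers to 6.24 to 16.3 and 16.7 to 20.95 CPM. Some of these calls were lost in part of 14 alternative settings, *Cpa3* (mast cells) in 8, *Ly6c2* and *C1qb* (monocytes and macrophages) in 7 and 5, *Klf1* (erythroid cells) in 2, and *Ptprc* in 1. None of the listed markers was at 0 in all libraries, and the part of these cells in the results below was not tested.

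Transcripts of 7 of the 9 mitochondrial chaperone and protease genes were called lower with AG636, and 0 of the 9 were called higher. The chaperonin genes *Hspd1* and *Hspe1* fell furthest, to 40.9% and 46.5% of the vehicle level, followed by *Clpp*, *Hspa9*, *Trap1*, *Grpel1* and *Lonp1*, while *Grpel2* and *Clpx* did not pass the test. Over all genes tested, 11.0% were called lower, 10.3% higher and 21.3% in either direction. The median log2 fold change of the 9 genes was -0.78, beside 0.03 for all genes tested. The 3 vehicle and the 3 AG636 values did not overlap for 8 of the 9 genes, always with AG636 lower, and over all genes tested 41.1% did not overlap, 20.6% with AG636 lower. In each such gene the exact permutation test gave p = 0.1 (two-sided), the smallest that 3 mice against 3 allow, and the adjusted p below come from edgeR's quasi-likelihood test over all genes tested. In bulk samples, fewer cells that express a gene and less RNA per cell cannot be told apart.

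**Figure D1:**
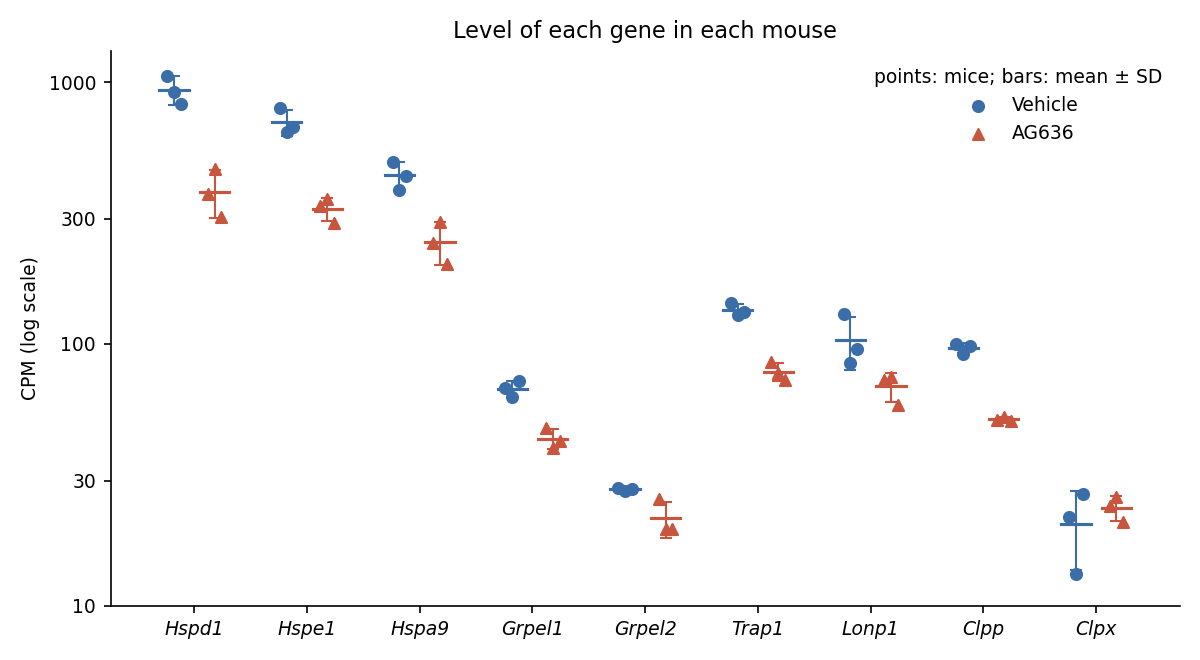
CPM (log scale) of the 9 genes in each of the 6 mice, with circles for vehicle, triangles for AG636, and bars for the mean and SD of 3 mice. All 3 AG636 mice lie under all 3 vehicle mice for every gene but *Clpx*, where the groups overlap.

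*Hspd1* and *Hspe1* encode the barrel and the lid of the same folding chamber, and they lie head to head. *Hspd1* is on chromosome 1 from 55077835 to 55088243 of mm10 on the minus strand, and *Hspe1* from 55088132 to 55091307 on the plus strand. RefSeq places a start site of *Hspd1* 216 bases from that of *Hspe1*, so that the stretch between these starts lies upstream of both, and a second *Hspd1* start site 95 bases on the other side. The window from 250 bases before to 50 after the *Hspe1* start (GRCm38.p6, chr1:55087898-55088197, plus strand) is shown because it holds the stretch between the starts of the 2 genes with the largest decreases of the 9. Capitals mark overlapping matches to the heat shock element, made of the units TTC and GAA in turn with any 2 bases between them (3 units), and to the ETS core CCGGAAG, each searched on both strands.
*Hspe1* and *Hspd1* shared start region: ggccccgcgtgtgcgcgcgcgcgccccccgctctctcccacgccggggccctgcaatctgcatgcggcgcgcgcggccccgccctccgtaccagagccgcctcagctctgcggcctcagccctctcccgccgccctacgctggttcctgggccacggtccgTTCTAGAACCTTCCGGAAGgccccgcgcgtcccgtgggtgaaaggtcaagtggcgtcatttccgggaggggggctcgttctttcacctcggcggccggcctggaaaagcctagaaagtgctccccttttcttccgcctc

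The heat shock element, the binding motif of heat shock factors, was matched in 0.603% of 32851 such windows of all genes, and the ETS core in 8.86%, among them also the windows of *Grpel1*, 204 bases before the start, and of *Clpp*. Start windows were found for 7 of the 9 genes, and among these only the shared *Hspd1* and *Hspe1* region held the heat shock element. The E-box CACGTG (7.15% of windows) was matched 36 bases before the *Lonp1* start and in the window of the other *Hspd1* start, and the CRE TGACGTCA (1.79%) 47 bases before the *Trap1* start. The NRF1 element, GCGCA and GCGC with any 1 base between them (4.60%), was matched in the window of the other *Hspd1* start, and the ATF4 and CHOP element TGATGNAA (3.97%) in none of the 7 genes' windows. These are matches of letters and not measured binding.

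*Hspd1* had 1058, 917 and 826 CPM in the vehicle mice and 374, 465 and 305 CPM in the AG636 mice. The lowest vehicle mouse was far above the highest AG636 mouse. The mean fell from 933 ± 117 to 382 ± 80.0 CPM (SD, n = 3 per group), a log2 fold change of -1.29 (SE, the standard error of the log2 fold change, 0.16, adjusted p = 0.00245). *Hspe1* had 797, 644 and 672 CPM with vehicle and 336, 356 and 291 CPM with AG636. Its groups were also well apart, with a log2 fold change of -1.10 (SE 0.13, adjusted p = 0.00203). By size of decrease *Hspd1* ranked 190 and *Hspe1* ranked 274 of the 11092 genes. Together the pair made up 62.7% to 66.2% of the summed CPM of the 9 genes with vehicle and 56.1% to 58.5% with AG636. The log2 ratio of *Hspd1* to *Hspe1* counts within a mouse was 0.40 ± 0.11 with vehicle and 0.20 ± 0.16 with AG636 (SD, n = 3). The ratios overlapped, with a difference of -0.20 (SE 0.11, exact permutation test, two-sided, p = 0.2, adjusted p = 0.3 over 6 ratios). With 3 mice against 3 the smallest p of this test is 0.1. It therefore could not call a change in any of the 6 ratios, and whether the ratio changed is left undecided. Exons of the genes overlap by 112 bases at their starts, far from the 3′ ends where reads are expected. Named pseudogenes of *Hspd1* and *Hspe1* had at most 4 counts each, against 22527 and 17462 for the genes.

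The import motor and its exchange factors came next. *Hspa9*, on chromosome 18 from 34937423 to 34954351, had 495, 388 and 438 CPM with vehicle and 243, 292 and 201 CPM with AG636, without overlap. It fell by 0.84 on the log2 scale (SE 0.15, adjusted p = 0.00691), to 55.7% of the vehicle level. *Grpel1*, on chromosome 5 from 36464998 to 36474080, encodes the main exchange factor and had 68.1, 62.5 and 71.9 CPM with vehicle. In the AG636 mice it had 47.8, 40.0 and 42.7 CPM, again below every vehicle mouse, with a log2 fold change of -0.63 (SE 0.14, adjusted p = 0.0129). Without AG636 replicate 3 its adjusted p was 0.0537 and its log2 fold change -0.62. An exon of *Grpel1* overlaps the last 411 bases of *Tada2b* exon sequence on the opposite strand at its 3′ end, and the use of strand in counting is not given in the sources used here. *Tada2b* had 31.1 ± 4.67 CPM with vehicle and 36.2 ± 5.83 CPM with AG636 and was not called (adjusted p = 0.427).

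*Grpel2*, the paralog of *Grpel1*, on chromosome 18 from 61712440 to 61726331, was the less abundant exchange factor. It had 28.2, 27.5 and 27.8 CPM in the vehicle mice and 25.5, 19.6 and 19.6 CPM in the AG636 mice. The groups did not overlap, but its log2 fold change of -0.37 (SE 0.17, 95% interval -0.75 to 0.02) was not called (adjusted p = 0.152). It rested on 820 counts in all, beside 1849 for *Grpel1*. The log2 ratio of *Grpel1* to *Grpel2* was 1.27 ± 0.09 with vehicle and 1.01 ± 0.10 with AG636 (SD, n = 3), so that there were 2.41 and 2.01 counts of *Grpel1* for each of its paralog. The ratios of the groups did not overlap (difference -0.26, SE 0.08, exact permutation test, two-sided, p = 0.1, adjusted p = 0.3 over 6 ratios). The ratio of *Hspa9* to *Grpel1* overlapped between the groups, with a difference of -0.22 (SE 0.21, exact permutation test, two-sided, p = 0.4, adjusted p = 0.48).

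*Trap1*, on chromosome 16 from 4039971 to 4077827, had 143, 129 and 132 CPM with vehicle and 85.0, 77.5 and 72.7 CPM with AG636. The spread within each group was small against the gap between them, and the log2 fold change was -0.78 (SE 0.12, adjusted p = 0.00426), a fall to 58.2% of the vehicle level. The ratio of *Trap1* to *Hspa9*, the HSP90 and the HSP70 of the matrix, differed by 0.07 (SE 0.15, exact permutation test, two-sided, p = 0.7, adjusted p = 0.7), with overlapping groups. Exons of *Trap1* share 54 bases with *Dnase1* on the opposite strand, which had 1 count in all.

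**Figure D2:**
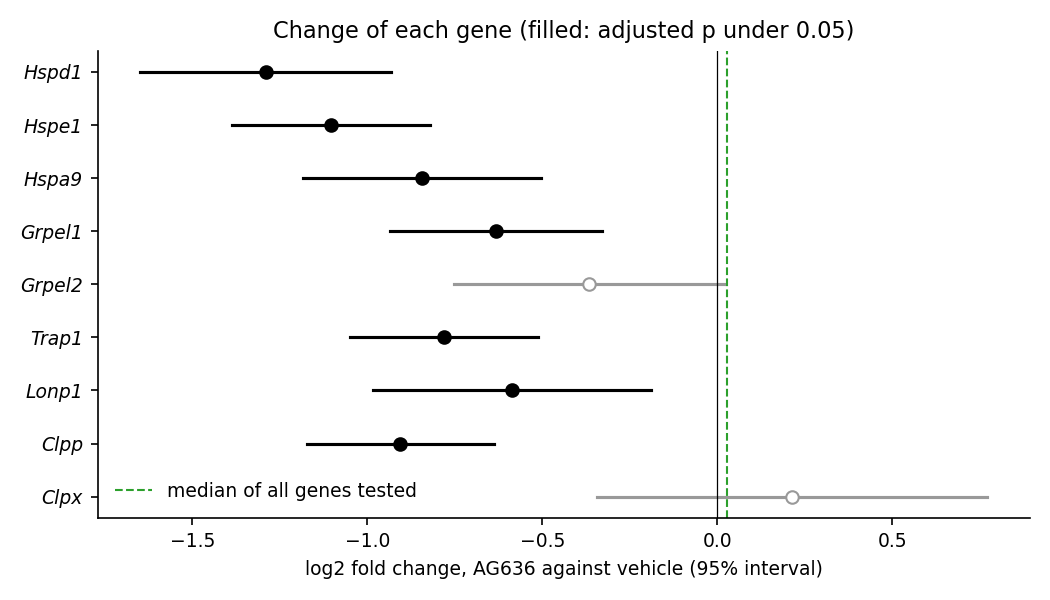
Log2 fold change of each gene (AG636 against vehicle, horizontal axis) with its 95% interval, filled where the adjusted p was under 0.05; the dashed line is the median of all genes tested, 0.03. *Hspd1* at -1.29 and *Hspe1* at -1.10 lie furthest to the left, and the intervals of *Grpel2* and *Clpx* reach above 0.

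Of the proteases, *Clpp* and *Lonp1* fell and *Clpx* did not pass the test. *Clpp*, the peptidase, on chromosome 17 from 56990305 to 56996188, had 100.0, 91.7 and 98.4 CPM with vehicle. All 3 AG636 mice lay close together at 51.4, 52.8 and 50.6 CPM. Its log2 fold change was -0.91 (SE 0.12, adjusted p = 0.00294), and its SD was 4.57% of the mean with vehicle and 2.15% with AG636. The latter is below the spread that counting error alone gives at 242 to 268 counts per mouse. *Clpx*, the unfoldase that feeds CLPP, on chromosome 9 from 65294260 to 65330658, had 21.8, 13.2 and 26.7 CPM with vehicle and 24.0, 26.0 and 20.9 CPM with AG636. The groups overlapped, with the lowest value in vehicle replicate 2. The log2 fold change was 0.21 (SE 0.25, 95% interval -0.34 to 0.77, adjusted p = 0.569), and it was -0.05 without vehicle replicate 2. *Clpx* had 701 counts in all, and its SD was 33.3% of the mean with vehicle, against 1.26% for *Grpel2* with 820 counts. *Grpel2* had 133 to 210 counts per vehicle mouse, for which 1.26% is below the spread that counting error alone gives. With AG636 the order was the reverse, 10.7% for *Clpx* and 15.7% for *Grpel2*. For *Clpx*, a fall to less than 78.7% of the vehicle level lies outside the 95% interval.

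The balance of the CLPXP partners was read within each mouse. The log2 ratio of *Clpx* to *Clpp* counts was -2.18, -2.77 and -1.86 in the vehicle mice and -1.09, -1.01 and -1.26 in the AG636 mice. On average there were 0.207 counts of *Clpx* for each of *Clpp* with vehicle and 0.461 with AG636. The difference of 1.15 (SE 0.28) was the largest of the 6 ratios, without overlap (exact permutation test, two-sided, p = 0.1, adjusted p = 0.3 over 6 ratios). Without vehicle replicate 2 it was 0.91. The start windows of both genes (GRCm38.p6, plus strand, 250 bases before to 50 after the start) are shown for this pair, with the ETS core in capitals. That of *Clpp* is chr17:56990014-56990313 and that of *Clpx* is chr9:65294010-65294309, where none of the 6 motifs was matched.
*Clpp* start window: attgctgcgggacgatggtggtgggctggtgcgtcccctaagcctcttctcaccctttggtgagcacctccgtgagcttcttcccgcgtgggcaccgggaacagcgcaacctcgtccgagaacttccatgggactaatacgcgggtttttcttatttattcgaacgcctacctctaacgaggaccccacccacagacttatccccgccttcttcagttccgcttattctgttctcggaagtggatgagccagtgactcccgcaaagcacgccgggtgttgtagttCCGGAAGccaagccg
*Clpx* start window: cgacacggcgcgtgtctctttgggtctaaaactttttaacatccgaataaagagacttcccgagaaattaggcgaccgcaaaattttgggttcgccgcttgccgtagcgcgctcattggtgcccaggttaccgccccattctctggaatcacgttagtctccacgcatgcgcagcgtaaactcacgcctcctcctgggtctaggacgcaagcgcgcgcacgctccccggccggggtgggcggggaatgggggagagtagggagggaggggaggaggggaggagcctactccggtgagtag

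*Lonp1*, the other matrix protease, on chromosome 17 from 56614297 to 56626887, had 130, 84.2 and 95.9 CPM with vehicle and 73.1, 74.6 and 58.5 CPM with AG636. The groups did not overlap, but the gap was narrow and vehicle replicate 1 stood above the rest. Its log2 fold change was -0.59 (SE 0.18, adjusted p = 0.0424), the weakest of the 7 calls. The adjusted p rose to 0.115, 0.0851 and 0.145 without vehicle replicate 1, AG636 replicate 1 and AG636 replicate 3, and to 0.0640 with library size alone. The ratio of *Lonp1* to *Clpp* overlapped between the groups, with a difference of 0.33 (SE 0.18, exact permutation test, two-sided, p = 0.2, adjusted p = 0.3).

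**Figure D3:**
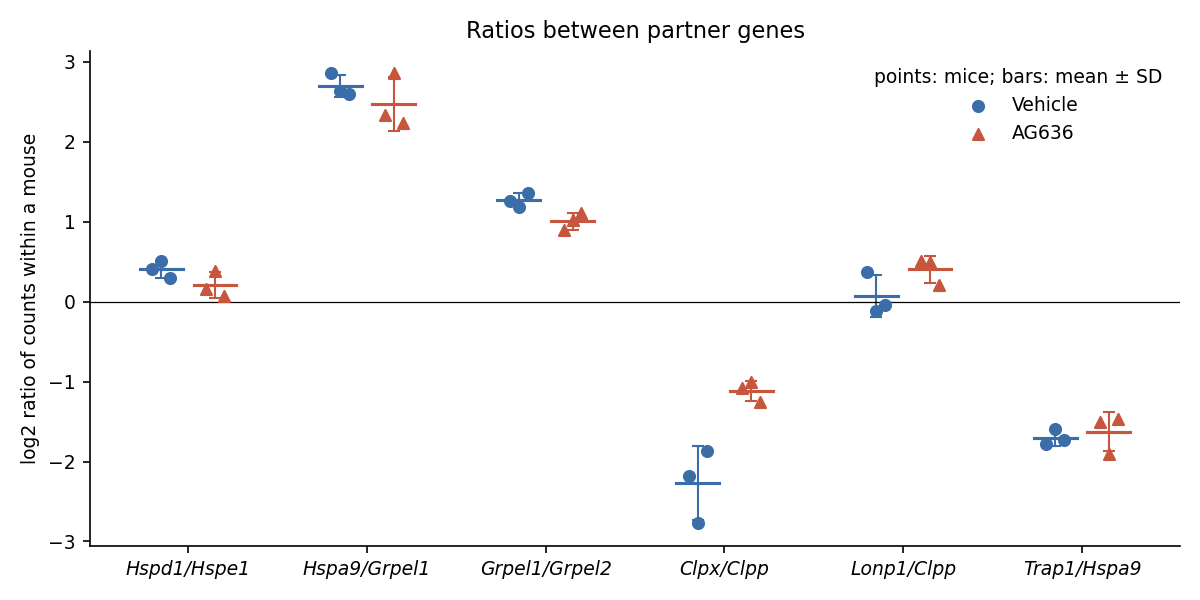
Log2 ratio of the counts of partner genes within each mouse, with circles for vehicle, triangles for AG636 and bars for the mean and SD of 3 mice. The groups are apart for *Clpx*/*Clpp*, whose mean went from -2.27 to -1.12, and for *Grpel1*/*Grpel2*, and overlap for the other ratios.

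Levels are compared between genes as CPM without division by length, since each transcript is tagged at its 3′ end. In the vehicle mice the order was *Hspd1*, *Hspe1*, *Hspa9*, *Trap1*, *Lonp1*, *Clpp*, *Grpel1*, *Grpel2* and *Clpx*. The ranges of the mice overlapped for the neighbours *Trap1* and *Lonp1* and for *Lonp1* and *Clpp*, and for no other neighbours in that order. In the AG636 mice *Clpx*, at 23.6 ± 2.53 CPM, stood beside *Grpel2*, at 21.6 ± 3.39 CPM, with overlapping ranges, and those of *Hspd1* and *Hspe1* overlapped as well. Within the vehicle group replicate 1 was highest for 7 of the 9 genes and replicate 2 lowest for 8, and within the AG636 group replicate 3 was lowest for 7. Vehicle replicate 1 was also the library with the most erythroid marker RNA (4772 CPM). Vehicle replicate 2, lowest for 8 of the genes, had more of it than vehicle replicate 3 (3059 and 1693 CPM). Vehicle replicate 1 also had the lowest summed neutrophil and monocyte markers of the 6 libraries (1089 and 69.0 CPM). A link between marker levels and the 9 genes was not tested. Without vehicle replicate 1, 6 of the 9 genes were called lower, and without AG636 replicate 3, 5 were.

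Across the 6 mice the genes most like the mean standardized pattern of the 9 were *Odc1*, *Hist1h1a*, *Emg1*, *Srsf2* and *Slc52a2*, with Pearson correlations from 0.996 to 0.999. These points share their libraries and the group difference, and *Hist1h1a* rested on few counts, with 1.23 ± 0.41 CPM with AG636. *Odc1*, the enzyme that starts polyamine synthesis, fell from 388 ± 61.3 to 198 ± 21.9 CPM (SD, n = 3). Of the 9 genes themselves, *Clpx* had a correlation of -0.10 with that mean and the others between 0.87 and 0.98. Each of the 9 is part of that mean, so these values are raised by construction. Even so, 55 genes had a higher correlation than *Hspe1*, the closest of the 9, and 1215 a higher one than *Grpel2*.

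Related lists were counted in the same fit, without a set test. Over all genes tested, 11.0% were called lower and 10.3% higher. The lists were written with earlier results of these data known. Among 8 other folding helpers of mitochondria, not all of them in the matrix, 2 were lower and 0 higher, with a median log2 fold change of -0.34. *Dnaja3*, the J-domain partner of mortalin, fell from 53.7 ± 11.5 to 31.7 ± 6.93 CPM (SD, n = 3, adjusted p = 0.0291). *Clpb*, a disaggregase of the intermembrane space, fell from 47.3 ± 5.64 to 32.3 ± 3.07 CPM (adjusted p = 0.0342). Neither call was kept without AG636 replicate 1 or without AG636 replicate 3 (*Dnaja3* adjusted p = 0.0927 and 0.107, *Clpb* 0.0811 and 0.126), and 1 of the 2 was lost without any one of the vehicle mice. *Clpb* was also not called with library size alone (adjusted p = 0.0609).

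Among 19 other mitochondrial proteases and scaffolds, 6 were lower and 0 higher, with a median log2 fold change of -0.37. *Phb* and *Phb2*, which form the prohibitin ring around membrane proteases, had log2 fold changes of -0.84 and -0.86 (SE 0.15 and 0.16, adjusted p = 0.00685 and 0.00688). *Htra2*, a protease of the intermembrane space, fell from 181 ± 55.0 to 91.2 ± 6.73 CPM (adjusted p = 0.00939). The number lower was 3 without AG636 replicate 3. Of 25 tested genes for mitochondrial protein import, 12 were lower and 0 higher, with a median log2 fold change of -0.58. *Timm44*, which tethers mortalin to the import channel, had a log2 fold change of -0.62 (SE 0.12, adjusted p = 0.00947), *Timm50* one of -0.70 (SE 0.13, adjusted p = 0.00857) and *Tomm5* one of -0.87 (SE 0.14, adjusted p = 0.00457). Only 7 import genes were lower without AG636 replicate 3. Of 12 tested genes for mitochondrial DNA maintenance and biogenesis, *Twnk* and *Pprc1* were lower (16.7%, beside 11.0% of all genes tested). Their log2 fold changes were -0.78 and -0.62, and the median of the list was -0.21. Without AG636 replicate 3 neither was called, and without vehicle replicate 1, vehicle replicate 2 or AG636 replicate 1 only *Twnk* of these 2 was.

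**Figure D4:**
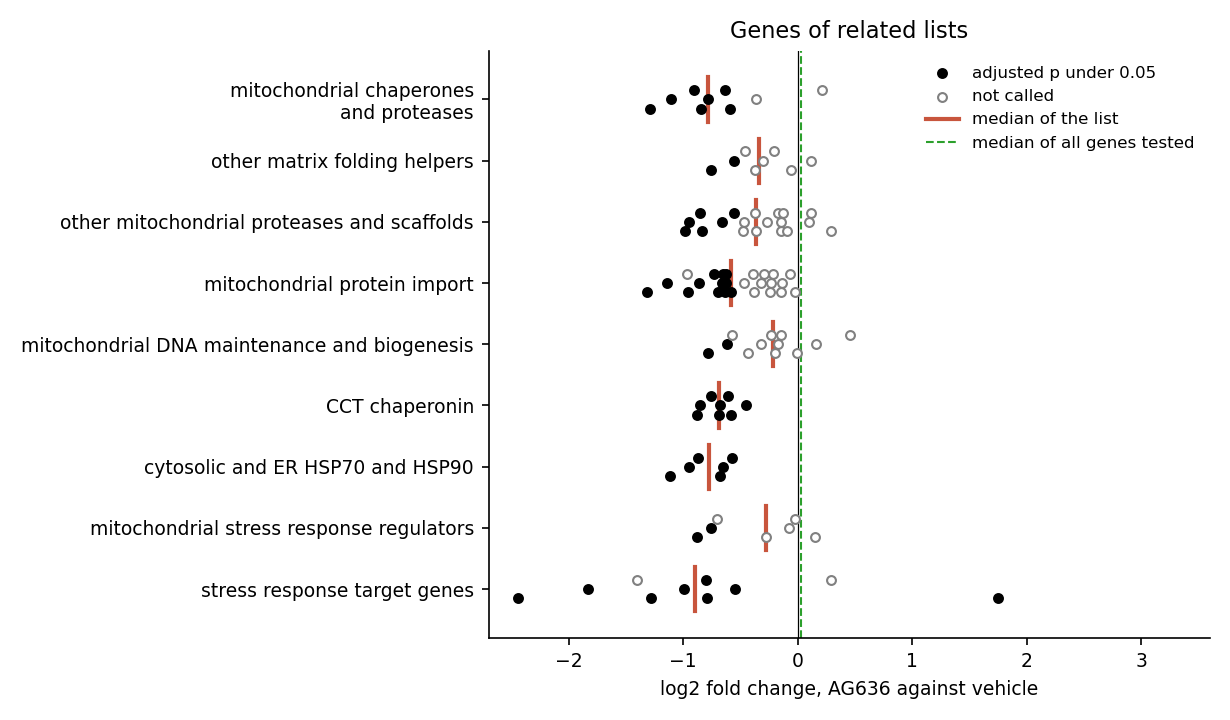
Log2 fold change (AG636 against vehicle) of each tested gene in 9 lists, one row per list, filled where the adjusted p was under 0.05, with a bar at the median of the list and a dashed line at the median of all genes tested. The 9 chaperone and protease genes have a median of -0.78, the other folding helpers one of -0.34 and the CCT chaperonin one of -0.68. The row labelled other matrix folding helpers includes *Clpb* of the intermembrane space.

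Chaperones of other compartments moved too. All 8 subunits of CCT, the cytosolic counterpart of the HSP60 chamber, were lower, with a median log2 fold change of -0.68 beside -1.29 and -1.10 for *Hspd1* and *Hspe1*. *Cct6a*, *Cct8* and *Cct3* had -0.88, -0.85 and -0.69 (adjusted p = 0.00408, 0.00320 and 0.00408). In a chosen list of 6 cytosolic and endoplasmic reticulum HSP70 and HSP90 genes, which does not cover these families, 6 were lower, with a median of -0.77. *Hspa14* and *Hspa4l*, outside that list and named after their values were seen, were not called (log2 fold changes -0.26 and -0.48, adjusted p = 0.233 and 0.0794). *Hspa8*, the constitutive cytosolic HSP70, had -1.12 (SE 0.13, adjusted p = 0.00203), beside -0.84 for *Hspa9*. *Hspa4*, of the HSP110 family, had -0.68 (SE 0.11, adjusted p = 0.00439), and *Hsp90ab1* had -0.95 (SE 0.11, adjusted p = 0.00202), beside -0.78 for *Trap1*. Without AG636 replicate 3, 7 of the 8 CCT genes and 5 of the 6 listed HSP70 and HSP90 genes were lower. Whether the lists differ from each other was not tested.

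Regulators known to act on mitochondrial chaperone genes under stress were then read. *Atf4*, the effector of the integrated stress response, had 387.1, 386.9 and 355 CPM with vehicle and 204, 243 and 165 CPM with AG636. It fell by 0.88 on the log2 scale (SE 0.15, adjusted p = 0.00517), without overlap between the groups. These are transcript levels, and ATF4 protein and its activity are not part of these data. In MN, another AML model, the study reports more ATF4 protein in cultured cells given AG636. It also reports ATF4 motifs enriched in chromatin that opened in MN cells of treated mice. *Ddit3*, the gene for CHOP, fell from 49.7 ± 7.90 to 29.4 ± 0.63 CPM (SD, n = 3, adjusted p = 0.0125). *Atf5*, a factor linked to the mitochondrial unfolded protein response, had 14.5 ± 2.25 and 8.91 ± 1.59 CPM and missed the threshold (log2 fold change -0.70, SE 0.23, adjusted p = 0.0560). *Hsf1*, the main heat shock factor, was not called, with 31.8 ± 5.32 and 26.2 ± 6.59 CPM (adjusted p = 0.376). *Dele1* and *Eif2ak1*, which relay mitochondrial stress to the cytosol, and *Cebpb* had log2 fold changes of -0.03, -0.08 and 0.15 (SE 0.24, 0.17 and 0.22, adjusted p = 0.949, 0.765 and 0.647). These last values changed sign under some settings. In this list of 7, 2 genes were thus lower and 0 higher, with a median of -0.28.

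Of 10 tested genes that are known targets of the stress response, 7 were lower and 1 was higher, with a median log2 fold change of -0.89. The mitochondrial one-carbon enzymes *Mthfd2* and *Shmt2* fell from 163 ± 16.6 to 67.1 ± 9.37 CPM and from 203 ± 12.6 to 102 ± 19.4 CPM (adjusted p = 0.00202 and 0.00411). *Psat1*, of serine synthesis, fell from 257 ± 4.29 to 148 ± 7.81 CPM (adjusted p = 0.00298). *Ddit4*, an inhibitor of mTORC1 that is also a target of other stress pathways, rose from 20.6 ± 9.15 to 69.2 ± 10.6 CPM (adjusted p = 0.00521). Of these genes, 4 were lower without AG636 replicate 3.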

How the data were processed

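The authors deposited raw read counts per gene and sample. Libraries were made with a 3′ mRNA-seq kit. Per the submitters' processing notes, reads were trimmed with cutadapt 1.9.1, aligned with HISAT2 2.0.4 to GRCm38 (mm10) and counted with featureCounts of Subread 1.5.0-p3, while the study's methods name later versions of cutadapt and Subread. Use of strand and of multiply mapping reads is not given in the sources used here. Exon lengths listed by the authors entered no test.

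Symbols came from GENCODE M21 for 99.79% of 54838 identifiers, and where identifiers shared a symbol the one with most counts kept it. Genes were filtered with filterByExpr (minimum count 10, minimum total 15) and scaled with TMM, and the groups were compared with edgeR 4.0.16 (quasi-likelihood test, Benjamini-Hochberg adjustment over 11092 genes) in R 4.3.3. CPM use the scaled library sizes. Standard errors are the log2 fold change divided by the square root of F. Ratios are log2((count + 2)/(count + 2)) within a mouse, tested by exact permutation and adjusted over 6 ratios.

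Samples were grouped by their titles, and the study gives 3 mice per group. Replicates differed by 6.22 to 14.6 chi-square per degree of freedom, above sampling noise, so each was counted once. The members and lists were chosen with earlier results of these data known. Named were all 9 genes, all 7 regulators, up to 3 called genes per direction in each other list, the 5 genes most like the members, and genes whose exons overlap a member or pseudogenes of one with at least 10 counts. *Dnase1* fell outside this rule and was named after its count was seen. Motifs were searched in RefSeq start windows (GRCm38.p6). On simulated data for this comparison (10948 genes) edgeR called 79.0% of 100 genes changed by 1 on the log2 scale and 7.00% of 100 changed by 0.5, with 11 unchanged genes called. No other genes were changed in the simulation, while 21.3% of genes were called in the real comparison. The adjustment was therefore stricter in the simulation, and these shares do not give the power of the real comparison. Alternatives were DESeq2 1.42.0, limma-voom (limma 3.58.1), median-of-ratios factors, library size alone, no filter, a minimum of 10 counts per library, thinning to the smallest total, a replicate block, each sample left out, and an adjusted p under 0.01.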

Additional observations from a re-analysis of the deposited data

How the results depend on the processing

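Over the 14 alternatives other than the stricter threshold, *Hspd1*, *Hspe1*, *Hspa9*, *Trap1* and *Clpp* were called lower in each, with log2 fold changes from -1.46 to -1.15, -1.18 to -1.01, -0.99 to -0.72, -0.85 to -0.69 and -0.95 to -0.82. *Grpel1* (-0.71 to -0.55) lost its call in 1 and *Lonp1* (-0.73 to -0.41) in 4, as given above. *Grpel2* (-0.51 to -0.28) was called in none, and *Clpx* (-0.046 to 0.42) turned to -0.046 without vehicle replicate 2. The cause of these changes was not tested. The number of the 9 genes called lower was 5 at an adjusted p under 0.01 and between 5 and 7 when single mice were left out. Over all genes, leaving out a mouse gave 452 to 1298 lower and 399 to 1074 higher, and the stricter threshold 325 and 231, fewer by construction. In the related lists 48 genes were lower, 24 at the stricter threshold and 29 to 47 without single mice. The difference in the *Trap1*/*Hspa9* ratio ranged from -0.0089 without AG636 replicate 3 to 0.21, *Hspd1*/*Hspe1* from -0.29 to -0.14, *Hspa9*/*Grpel1* from -0.41 to -0.10, *Grpel1*/*Grpel2* from -0.31 to -0.21, *Clpx*/*Clpp* from 0.91 to 1.36 and *Lonp1*/*Clpp* from 0.23 to 0.48. Library size alone moved the median log2 fold change of all genes from 0.03 to 0.12 and that of the 9 genes from -0.78 to -0.69. *Dele1* turned to 0.066 with library size alone, 0.020 with counts thinned to the smallest total and 0.010 with the replicate block, and ranged from -0.27 to 0.10 when single mice were left out. *Eif2ak1* turned to 0.013 with library size alone and ranged from -0.18 to 0.089, and *Cebpb* from -0.029 to 0.27, when single mice were left out. Of the 41 other named genes, 12 lost a call under some alternative. With the replicate number as a block, 7 of the 9 genes stayed lower, *Dnaja3* and *Clpb* lost their calls (adjusted p = 0.0515 and 0.0525), and 1046 genes were lower and 914 higher in all. Same-numbered samples had correlations of deviations of -0.06, -0.18 and 0.22 and did not all match best with their own number, so the numbers were not taken as pairs.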

Other observations

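The genes for the pathway that AG636 blocks were lower in the treated mice as well. *Dhodh*, which encodes the target of the inhibitor in the inner mitochondrial membrane, had 62.4, 49.4 and 55.6 CPM with vehicle and 35.0, 28.2 and 31.7 CPM with AG636, without overlap (log2 fold change -0.82, SE 0.16, edgeR adjusted p = 0.00880). *Cad*, which carries out the steps before it, and *Umps*, which carries out those after it, had log2 fold changes of -0.84 and -0.70 (SE 0.20 and 0.16, adjusted p = 0.0194 and 0.0141). Without AG636 replicate 3 only 1 of these 3 genes was called lower. Their values lie close to the median of -0.78 of the mitochondrial chaperone and protease genes, and no difference between the lists was tested.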
